A study of Homo sapiens with 4 samples.

Results

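Of the 458 genes in the deposited tables whose symbol starts with SLC and a digit, 185 had 1 FPKM or more in 2 or more of the 4 libraries, and these 185 expressed solute carrier genes are described here. FPKM is the number of sequenced fragments of a gene scaled to its length and to the library size. The 185 genes were chosen by the FPKM of the same 4 libraries that are compared below, so that being expressed is not a result. Of the 185, 177 passed in all 4 libraries, 4 in 3 libraries and 4 in 2 libraries, and the other 273 genes stayed below the limit. The tables list 57905 genes in all, and 11598 of them passed the same limit and were tested.

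Solute carriers are membrane proteins that move small molecules across the plasma membrane and the membranes of organelles without splitting ATP themselves. They work as uniporters, as symporters driven by sodium or proton gradients, or as exchangers, and the number after SLC names the family. In carcinoma cells the best known ones bring in glucose and amino acids and let out lactate, while most of the SLC25 family sits in the mitochondrial inner membrane.

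The libraries came from A549, an established human lung adenocarcinoma line. Cells given 0.6 µM GMI, a fungal immunomodulatory protein from Ganoderma microsporum, for 24 h gave 2 libraries, and control cells gave 2 libraries. All cells were grown in DMEM with fetal bovine serum, and the stated purpose was to profile differential expression. Whether the 2 libraries of a group stem from separate cultures is not stated in the labels, and p-values therefore measure only how these samples spread, possibly for technical reasons.

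Among 5 epithelial markers, KRT8 and KRT18 were abundant (1914 and 1981 FPKM for KRT8 in GMI cells, 1928 and 1841 FPKM in control cells), while EPCAM and KRT19 stayed below 1 FPKM. KRT18 fell, with 740 and 700.5 FPKM in GMI cells and 885 and 846 FPKM in control cells (limma adjusted p = 0.0339). Of the 6 markers of alveolar type II cells, ABCA3 passed the limit, and the summed FPKM of the list was 8.11 to 9.52 in GMI cells and 7.03 to 7.83 in control cells. The 5 leukocyte markers summed to 3.74 and 4.87 FPKM in GMI cells and 2.08 and 2.24 FPKM in control cells, nearly all of it CD14, which rose (limma adjusted p = 0.0092), while PTPRC and CD3E were at 0 in all libraries. The 5 fibroblast markers summed to 1.23 to 1.34 FPKM in every library, and the 2 endothelial markers found in the tables to at most 0.07 FPKM. Read from the steps of the FPKM values, the library denominators were 20560000 to 24090000 fragments, so 1 FPKM in a 2 kb gene stood for 41.1 to 48.2 fragments.

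After GMI, 21 of the 185 carriers rose and 12 fell, at a limma adjusted p below 0.05 over all genes tested, and 152 did not pass. The word carriers stands here for all 185 genes, including 6 that share the symbol but are no carriers. Without those 6, 20 of 179 rose and 11 fell. The share called was 17.8% of the carriers, against 15.4% of all genes tested. Carriers that rose made up 11.4%, against a background of 9.30%, and carriers that fell made up 6.49%, against a background of 6.12%. Both shares lie near the background, and nothing about the family as a whole is read from them. The median log2 fold change, GMI over control, was 0.033 for the carriers and -0.006 for all genes tested. Both GMI libraries lay above both controls for 70 carriers (37.8%, background 29.8%) and below both for 49 (26.5%, background 30.4%). A few carriers passed the limit through 1 group only: SLC31A2 through GMI cells, and SLC16A9 and SLC45A4 through control cells, so that a difference was built into their choice. Without them, 182 carriers remained, of which 20 rose and 11 fell.

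The calls depended on the libraries kept. When either control library was left out (control replicate 1 or control replicate 2), SLC16A6 was the only carrier past the threshold. Without GMI replicate 1, 20 carriers passed, and without GMI replicate 2, 18 passed. Those called in both of the fits that left out 1 GMI library were SLC16A3, SLC16A6, SLC17A5, SLC22A5, SLC23A2, SLC25A22, SLC2A1, SLC2A4RG, SLC30A1, SLC6A15 and SLC7A5. SLC16A9 was called in both as well, but it passed the limit through control cells, so its fall was built into its choice. In none of the 4 fits did SLC1A1, SLC20A1, SLC25A5, SLC25A13, SLC25A32, SLC31A2, SLC35B2, SLC38A1, SLC38A7, SLC39A10 or SLC41A3 pass, and their calls rest on all 4 libraries. With no filter on low values, 0 carriers and 1 of 26758 genes passed in limma. Each of the 33 kept its direction in all of these fits. Their groups did not overlap, so leaving out a library or the filter could not have reversed it.

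The classes were set by symbol, not by a known substrate or location of each gene. Counts by class are a description, and differences between classes were not tested. Over all genes tested, 9.30% rose and 6.12% fell, 48.7% had a positive and 51.3% a negative log2 fold change, and at an unadjusted p below 0.05, 17.2% were higher and 15.0% lower. By limma, 5 of 36 mitochondrial carriers fell (13.9%) and none rose, with a median log2 fold change of -0.091, and 25 of the 36 had a negative value. At an unadjusted p below 0.05, 9 of them were lower and 0 higher. Of 17 carriers of nucleotide sugars and sulfate donors, 2 rose (11.8%, near the share of all genes) and none fell, with a median of 0.12 (6 and 0 at an unadjusted p below 0.05). Amino acid and peptide carriers (23 genes, median 0.16) had 4 that rose (17.4%) and 1 that fell. Metal carriers (23 genes, median 0.055) had 3 that rose and 1 that fell, or 2 and 1 of 22 without SLC31A2, which passed the limit through GMI cells. Among 11 sugar and polyol carriers 2 rose, among 24 inorganic ion carriers 1 rose (4.17%), and among 3 nucleoside carriers 1 rose, with none that fell in any of these (at an unadjusted p below 0.05, 1 sugar, 3 inorganic ion and 0 nucleoside carriers were lower). The remaining organic solutes (36 genes), such as monocarboxylates, vitamins and carnitine, held 7 that rose and 4 that fell, or 7 and 3 of 35 without SLC16A9, which passed through control cells. A further 6 carriers with no assigned substrate had no call (1 higher and 1 lower at an unadjusted p below 0.05), and 6 genes that share the symbol but are no carriers (adaptors, regulators and a pseudogene) had 1 in each direction. The class medians moved with the libraries kept: that of amino acid carriers was 0.068 and that of metal carriers 0.023 without GMI replicate 2, that of mitochondrial carriers was -0.036 without control replicate 2, and that of nucleotide sugar carriers was 0.23 without GMI replicate 1 and 0.20 without control replicate 2. The small medians of sugar (0.006) and nucleoside carriers (0.023) without GMI replicate 1, and of inorganic ion carriers (-0.022 without control replicate 1, 0.092 without control replicate 2), were likewise unsteady.

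**Figure D1:**
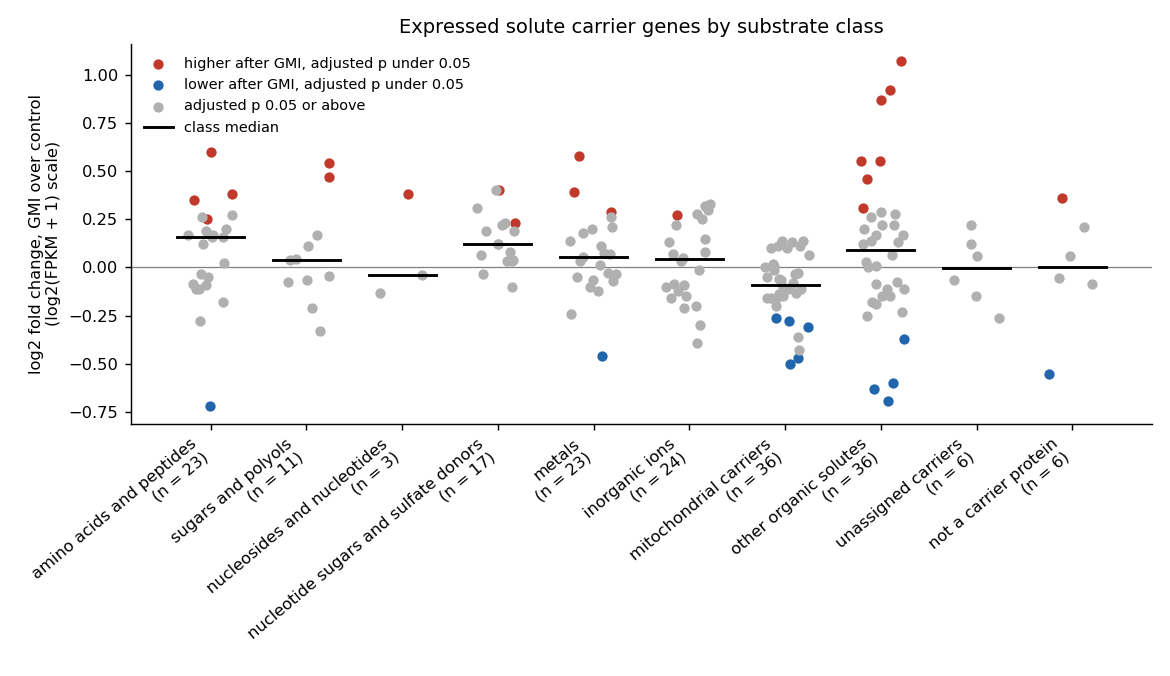
GMI over control as a log2 fold change of FPKM + 1 (vertical axis) for each of the 185 expressed genes by substrate class, with red points for genes that rose, blue for genes that fell, grey for those not past the threshold, and a bar at the class median. The 36 mitochondrial carriers have no red point and 5 blue ones.

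Levels were concentrated in few genes. The 185 carriers together held 4037 and 3927 FPKM in GMI libraries and 3930 and 3879 FPKM in control libraries, or 1.17% to 1.20% of all FPKM, and the 10 most abundant took 59.7% to 62.5% of that sum. The most abundant, SLC25A6, an adenine nucleotide carrier of mitochondria (also called ANT3), had 577 and 560 FPKM in GMI cells and 556 and 509 FPKM in control cells, a log2 fold change of 0.10 that did not pass (limma adjusted p = 0.37). SLC45A1 was among the genes just inside the limit, with 1.20 and 0.85 FPKM in GMI cells and 1.28 and 0.98 FPKM in control cells. Just outside stood SLC2A11, with 0.88 and 0.99 FPKM in GMI cells and 0.81 and 1.18 FPKM in control cells. These genes near the limit rest on few fragments and are given as a description.

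**Figure D2:**
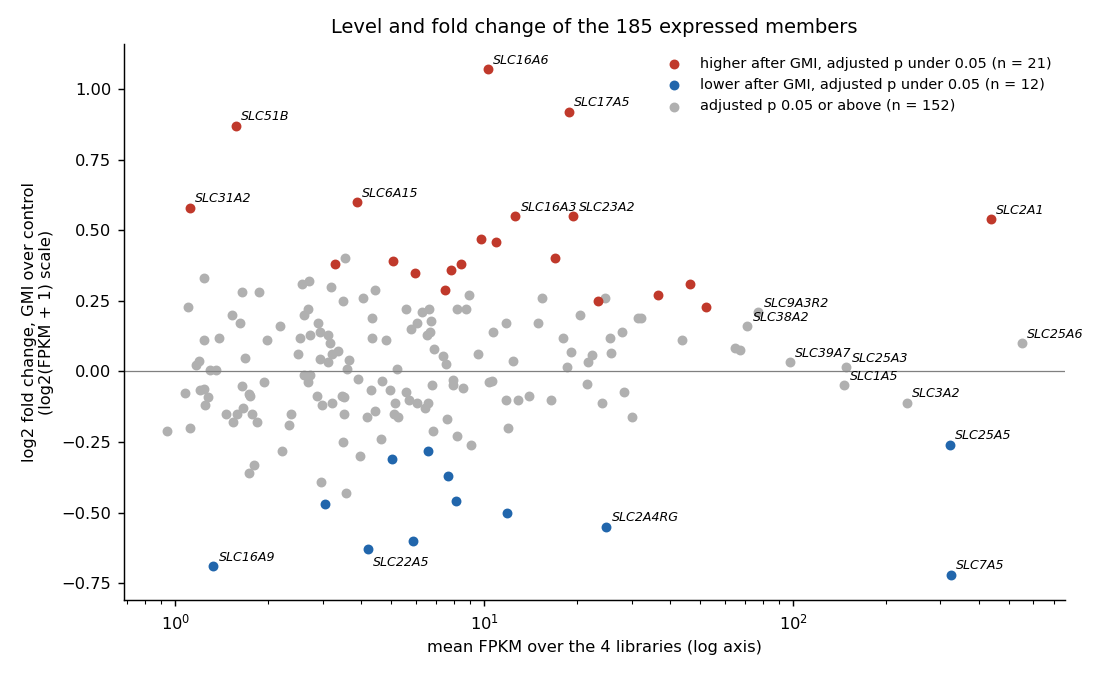
Mean FPKM over the 4 libraries (horizontal log axis) against the log2 fold change of GMI over control (vertical axis) for the 185 genes, coloured as called up, called down or not called. SLC2A1 and SLC7A5 combine a mean above 300 FPKM with changes of 0.54 and -0.72, while SLC25A6, the most abundant, lies at 0.10.

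To show regulatory sequence beside these calls, the 250 bases before the annotated start were read for the genes that had an entry in the RefSeq promoter table of build GRCh38.p14. Entries were found for 148 of the 185 genes, among them 12 that rose and 9 that fell. The E-box CACGTG, searched on both strands, was in the promoters of 3 of the 9 that fell (33.3%, or 2 of 8 without SLC16A9, whose fall was built into its choice), 1 of the 12 that rose (8.33%) and 11.5% of the 148, against 6.34% of all 35116 promoters of the table. The metal response element, searched as TGCACNC and TGCGCNC, was in 6 of the 9 that fell (66.7%, or 6 of 8 without SLC16A9), 4 of the 12 that rose (33.3%) and 34.5% of the 148, against 24.8% of all promoters. The amino acid response element TGATGNAA was in 2.03% of the 148 (3.14% of all promoters), TGANNNNGC of the antioxidant response in 37.2% (35.2%) and the sterol element TCACNCCAC in 1.35% (0.883%). These matches are letters found in a window and no test was made of them. The 5 promoters that follow are those of called genes with an E-box, and that of the zinc exporter SLC30A1, whose regulation by metals is textbook knowledge; capitals mark the E-box, or in SLC30A1 a metal response element on the minus strand relative to the gene.
SLC7A5 (fell), chr16:87869508-87869757, minus strand: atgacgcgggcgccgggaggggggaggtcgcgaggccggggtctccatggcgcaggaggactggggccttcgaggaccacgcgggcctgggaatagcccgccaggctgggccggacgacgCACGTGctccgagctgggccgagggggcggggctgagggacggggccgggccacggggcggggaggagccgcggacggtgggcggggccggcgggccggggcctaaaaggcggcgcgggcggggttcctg
SLC16A9 (fell), chr10:59710080-59710329, minus strand: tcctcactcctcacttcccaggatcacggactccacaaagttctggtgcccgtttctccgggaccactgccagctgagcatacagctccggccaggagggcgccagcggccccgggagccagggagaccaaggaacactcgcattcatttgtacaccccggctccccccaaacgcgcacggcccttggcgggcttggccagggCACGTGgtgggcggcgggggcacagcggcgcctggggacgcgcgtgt
SLC25A13 (fell), chr7:96322099-96322348, minus strand: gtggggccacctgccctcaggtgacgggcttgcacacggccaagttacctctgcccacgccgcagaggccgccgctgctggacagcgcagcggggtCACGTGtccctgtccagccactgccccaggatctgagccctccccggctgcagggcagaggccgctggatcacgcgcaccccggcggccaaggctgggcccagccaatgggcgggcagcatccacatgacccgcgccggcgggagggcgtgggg
SLC20A1 (rose), chr2:112645689-112645938, plus strand: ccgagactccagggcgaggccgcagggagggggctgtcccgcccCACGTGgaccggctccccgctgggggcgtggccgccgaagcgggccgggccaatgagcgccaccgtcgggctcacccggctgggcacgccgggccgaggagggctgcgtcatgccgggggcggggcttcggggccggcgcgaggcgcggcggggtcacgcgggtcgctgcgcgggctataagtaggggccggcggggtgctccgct
SLC30A1 (fell), chr1:211579162-211579411, minus strand: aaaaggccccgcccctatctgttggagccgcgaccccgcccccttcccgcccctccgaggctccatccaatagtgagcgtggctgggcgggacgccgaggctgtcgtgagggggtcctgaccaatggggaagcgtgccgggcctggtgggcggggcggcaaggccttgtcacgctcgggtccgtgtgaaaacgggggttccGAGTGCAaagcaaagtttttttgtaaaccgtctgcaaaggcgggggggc

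Amino acid carriers pointed both ways. SLC7A5 (ENSG00000103257, LAT1), which exchanges large neutral amino acids across the plasma membrane, had 269 and 221 FPKM in GMI cells, against 394 and 412 FPKM in control cells. Both GMI libraries lay far below both controls, and the GMI libraries differed more from each other than the controls did. SLC7A5 fell, at 245 ± 33.9 FPKM in GMI cells and 403 ± 12.7 FPKM in control cells (SD, n = 2 each), which is -0.72 on the log2 scale (SE 0.095; limma adjusted p = 0.00539). The tables also hold 2 pseudogenes of SLC7A5, whose highest value was 2.24 FPKM. The heavy chain SLC3A2 (4F2hc), to which SLC7A5 is bound in the membrane, had 224 and 225 FPKM in GMI cells and 252 and 234 FPKM in control cells. Its values lay slightly lower in GMI cells without passing the threshold (log2 fold change -0.11, limma adjusted p = 0.247). The glutamine carrier SLC1A5 (ASCT2) had 147 and 140 FPKM in GMI cells and 150 and 148 FPKM in control cells, and it did not pass the threshold either (-0.049). The cystine-glutamate exchanger SLC7A11 and the neutral amino acid carrier SLC38A2 had log2 fold changes of 0.19 and 0.16, also short of the threshold, as had the lysosomal amino acid sensor SLC38A9 (0.20) and the endolysosomal histidine and peptide carrier SLC15A4 (-0.11).

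The 4 amino acid carriers that rose were less abundant. SLC6A15, a sodium-dependent carrier of branched-chain amino acids and proline, had 4.59 and 5.15 FPKM in GMI cells and 2.93 and 2.82 FPKM in control cells, or 0.60 on the log2 scale (SE 0.087; limma adjusted p = 0.00757). SLC38A7, which lets glutamine out of lysosomes, had 7.06 and 6.56 FPKM in GMI cells and 5.08 and 5.17 FPKM in control cells (0.35, limma adjusted p = 0.0267). SLC1A1, a glutamate and cysteine carrier, had 4.04 and 3.65 FPKM in GMI cells and 2.72 and 2.70 FPKM in control cells (0.38, limma adjusted p = 0.0303). In each of the 3, both GMI libraries lay above both controls. SLC38A1, a glutamine carrier of the plasma membrane, had 25.1 and 25.7 FPKM in GMI cells and 20.4 and 22.1 FPKM in control cells, and rose by 0.25 with a limma adjusted p of 0.0499, at the threshold. SLC38A7, SLC1A1 and SLC38A1 lie outside the rule for named genes and are named because they complete the count of those that rose. In the list of 4F2hc exchangers and glutamine carriers, 13 of 20 genes were expressed. Of these, 2 rose (15.4%) and 1 fell (7.69%), against 9.30% and 6.12% of all genes tested. The list was put together by hand with earlier results known, so nothing particular to it is read from these counts. The summed FPKM of the list was 804 and 759 in GMI cells and 941 and 947 in control cells. Most of that difference lay in SLC7A5, at 269 and 221 FPKM in GMI cells and 394 and 412 FPKM in control cells.

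Sugar carriers were higher in total, through 1 abundant gene. SLC2A1 (ENSG00000117394, GLUT1), the main glucose carrier of most cultured cells, had 539 and 497 FPKM in GMI cells, against 357 and 354 FPKM in control cells. The groups were well apart, and the controls were nearly equal. SLC2A1 rose to 518 ± 29.4 FPKM in GMI cells, against 355 ± 2.23 FPKM in control cells (SD, n = 2 each), 1.46-fold on the ratio of means and 0.54 on the log2 scale (SE 0.063, limma adjusted p = 0.00348). SLC2A3 (GLUT3), a glucose carrier of high affinity, rose as well, with 10.7 and 12.3 FPKM in GMI cells and 7.88 and 8.13 FPKM in control cells (0.47, limma adjusted p = 0.0148). SLC2A8, an intracellular sugar carrier, had 1.5 and 1.44 FPKM in GMI cells and 2.02 and 2.21 FPKM in control cells, and missed the threshold (-0.33, limma adjusted p = 0.0619). The 11 sugar and polyol carriers summed to 599 and 559 FPKM in GMI libraries and 415 and 411 FPKM in control libraries.

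**Figure D3:**
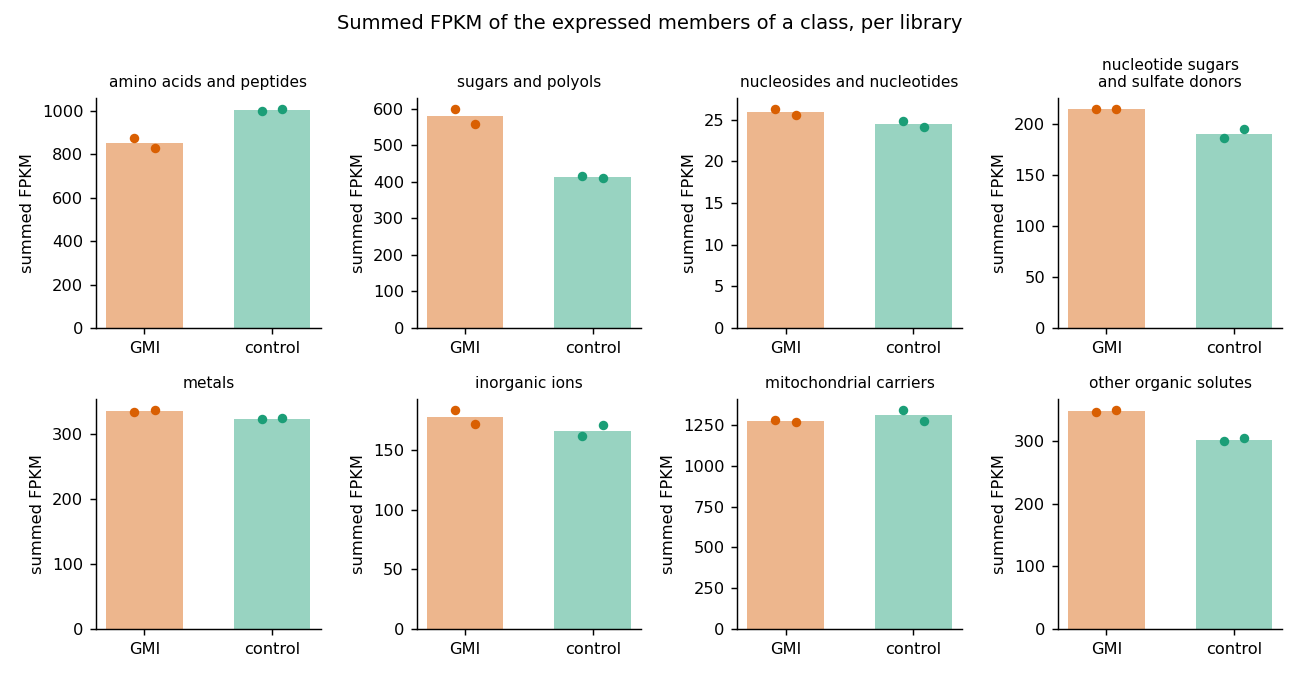
Summed FPKM of the expressed genes of 8 substrate classes, with 1 panel per class, GMI on the left and control on the right, bars for the group mean and points for the 2 libraries of a group. Sugar and polyol carriers stand at 599 and 559 FPKM in GMI libraries and 415 and 411 FPKM in control libraries. Amino acid carriers stand at 876 and 829 FPKM in GMI libraries and 1002 and 1010 FPKM in control libraries. These differences lie mostly in SLC2A1 and in SLC7A5.

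The SLC16 family includes the carriers of lactate and other monocarboxylates. Of its 8 expressed genes, 3 rose, 3 fell and 2 did not pass. Among those that fell, SLC16A9 passed the limit through control cells, so its fall was built into its choice. Of all genes tested, 9.30% rose and 6.12% fell, and nothing about the family is read from so few genes. On the log2(FPKM + 1) scale, which understates low genes, SLC16A6 (ENSG00000108932) had the highest log2 fold change of all 185 genes (1.07, SE 0.077, limma adjusted p = 0.000931). The low gene SLC51B, outside this family, had a larger ratio of means (2.81-fold). SLC16A6 had 14.4 and 14.1 FPKM in GMI cells and 5.92 and 6.63 FPKM in control cells (2.27-fold on the ratio of means). Its log2 fold change stayed past the threshold in each fit that left out 1 of the 4 libraries, which held for no other of the 33 called genes. SLC16A3 (MCT4), which exports lactate, rose with 15.4 and 14.99 FPKM in GMI cells and 10.05 and 9.99 FPKM in control cells (0.55, limma adjusted p = 0.00348). SLC16A13 had 11.9 and 13.7 FPKM in GMI cells and 8.81 and 9.19 FPKM in control cells (0.46, limma adjusted p = 0.015). SLC16A1 (MCT1), which moves lactate and pyruvate in both directions, fell, with 6.23 and 6.80 FPKM in GMI cells and 8.66 and 8.77 FPKM in control cells (-0.37, limma adjusted p = 0.0215). SLC16A9 had 0.86 and 0.71 FPKM in GMI cells and 1.96 and 1.78 FPKM in control cells; it lies outside the rule for named genes, and its log2 fold change of -0.69 is a description.

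Outside that family, carriers of sialic acid, vitamin C and riboflavin rose and the carnitine carrier fell. SLC17A5 (sialin), which lets sialic acid out of lysosomes, had 23.4 and 26.4 FPKM in GMI cells and 12.2 and 13.2 FPKM in control cells, or 0.92 on the log2 scale (SE 0.081; limma adjusted p = 0.00152). SLC23A2, a sodium-dependent vitamin C carrier, had 24.8 and 21.9 FPKM in GMI cells and 15.1 and 15.97 FPKM in control cells (0.55, limma adjusted p = 0.00685). Both genes had groups that did not overlap. SLC52A2, a riboflavin carrier, had 49.9 and 53.3 FPKM in GMI cells and 42.6 and 40.1 FPKM in control cells (0.31, limma adjusted p = 0.0237), and 44.2% of its exon length overlaps another gene, so that reads of the 2 genes cannot be told apart without a stated strand setting. SLC51B, a subunit of the organic solute transporter that exports bile acids, had 2.34 and 2.29 FPKM in GMI cells and 1.03 and 0.62 FPKM in control cells (0.87, limma adjusted p = 0.00855), about 48 and 45 fragments in GMI cells and 20 and 14 in control cells, and was named outside the rule. SLC22A5 (OCTN2), the carnitine carrier, fell, with 3.12 and 3.04 FPKM in GMI cells and 5.24 and 5.39 FPKM in control cells (-0.63, limma adjusted p = 0.00428). The folate carrier SLC19A1 had 2.86 and 3.33 FPKM in GMI cells and 3.82 and 3.91 FPKM in control cells, short of the threshold (-0.25, limma adjusted p = 0.114).

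**Figure D4:**
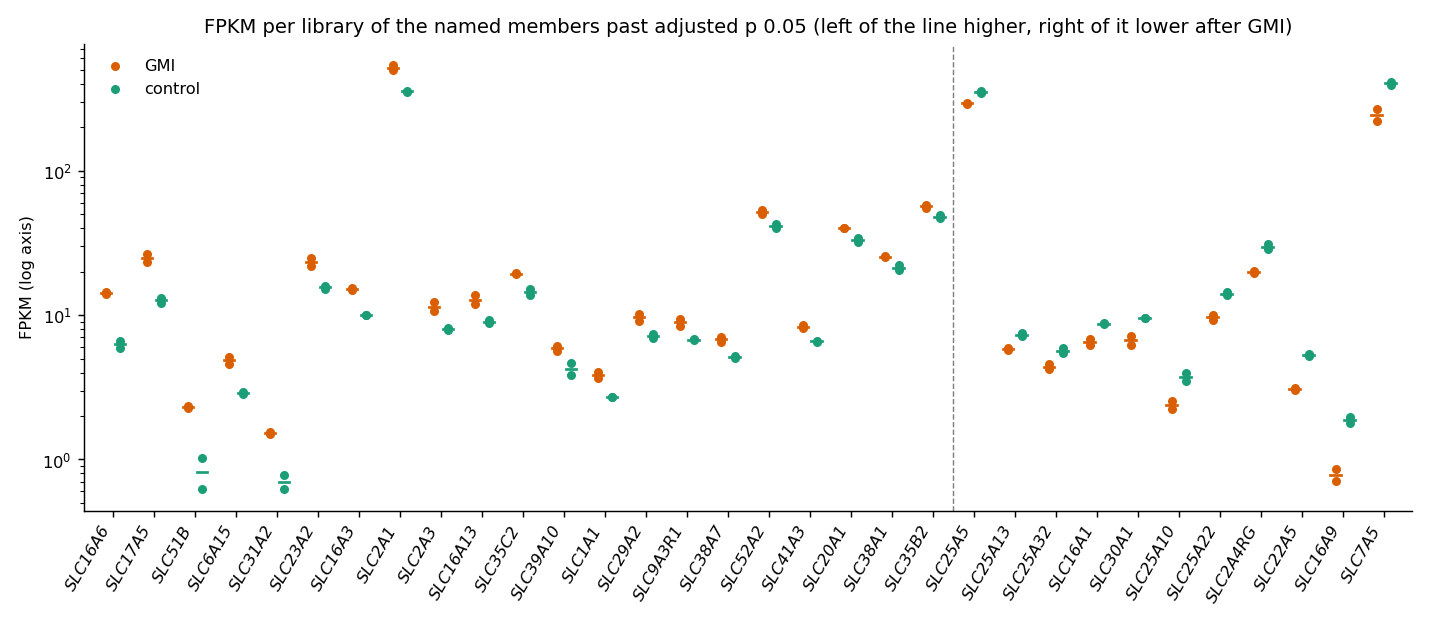
FPKM (vertical log axis) in each library of the called genes named here, with GMI to the left of control for each gene, bars at the group mean, and genes that rose left of the dashed line. The GMI and control points of SLC16A6 lie furthest apart among genes above 5 FPKM, at 14.4 and 14.1 FPKM in GMI cells and 5.92 and 6.63 FPKM in control cells.

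Nucleotide sugar carriers supply Golgi and endoplasmic reticulum with sugar donors for glycosylation. The class was set by symbol, so membership does not show what each gene carries. Of its 17 genes, 15 had a positive log2 fold change, against 48.7% of all genes tested, and 2 were past the threshold. SLC35C2 had 19.3 and 19.5 FPKM in GMI cells and 13.8 and 15.1 FPKM in control cells (0.40, SE 0.069, limma adjusted p = 0.0131). SLC35B2, the Golgi carrier of the sulfate donor PAPS, had 58.0 and 55.3 FPKM in GMI cells and 47.1 and 49.1 FPKM in control cells (0.23, limma adjusted p = 0.0467), and it lost its call when FPKM was rescaled to TPM (limma adjusted p = 0.0668). The summed FPKM of the class was 215 in each GMI library and 186 and 195 in control libraries. The nucleoside carrier SLC29A2 (ENT2) rose, with 10.1 and 9.17 FPKM in GMI cells and 6.99 and 7.39 FPKM in control cells (0.38, limma adjusted p = 0.0237), while the more widely studied SLC29A1 (ENT1) had 9.71 and 10.7 FPKM in GMI cells and 10.5 and 10.4 FPKM in control cells (-0.039).

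Among metal carriers 1 zinc exporter fell, and a zinc importer, a copper gene and a magnesium carrier were called higher, while the other 19 did not pass. SLC30A1 (ZnT1), which exports zinc across the plasma membrane, had 6.20 and 7.19 FPKM in GMI cells and 9.54 and 9.55 FPKM in control cells, or -0.46 on the log2 scale (SE 0.085; limma adjusted p = 0.0163). The other 4 expressed SLC30 genes did not pass. SLC39A10, a zinc importer, had 6.08 and 5.67 FPKM in GMI cells and 3.85 and 4.66 FPKM in control cells, and it was the only one of 11 SLC39 genes that rose (0.39, limma adjusted p = 0.0422); it missed the threshold in TPM (limma adjusted p = 0.0553). The copper gene SLC31A2, which passed the limit through GMI cells, had 1.55 and 1.51 FPKM in GMI cells and 0.62 and 0.78 FPKM in control cells (0.58, limma adjusted p = 0.0183, a direction built into its choice), and 63.1% of its exon length overlaps another gene. SLC41A3, a magnesium carrier named outside the rule, rose by 0.29 (limma adjusted p = 0.0381). The most abundant metal carrier, SLC39A7, which releases zinc from the endoplasmic reticulum, had 98.1 and 99.3 FPKM in GMI cells and 97.3 and 95.6 FPKM in control cells (0.033). Iron carriers did not pass: SLC11A2 (DMT1) had a log2 fold change of -0.071, SLC40A1 (ferroportin) of 0.11 and SLC39A14, a zinc and iron importer, of 0.015.

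Of 24 inorganic ion carriers, the phosphate importer SLC20A1 (PiT1) rose, with 39.9 and 40.2 FPKM in GMI cells and 32.2 and 34.2 FPKM in control cells (0.27, SE 0.061, limma adjusted p = 0.0316). The 12 expressed genes of the pH and bicarbonate list and the 5 of the cation-chloride list had no call by limma (at an unadjusted p below 0.05, 4 higher and 1 lower in the first list and 1 higher and 1 lower in the second, where all genes had 17.2% higher and 15.0% lower). SLC4A2, an anion exchanger, had 70.6 and 63.0 FPKM in GMI cells and 62.1 and 63.8 FPKM in control cells (0.082). SLC12A2 (NKCC1), a sodium, potassium and chloride cotransporter, had 1.04 and 1.38 FPKM in GMI cells and 1.26 and 1.43 FPKM in control cells (-0.089).

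Mitochondrial carriers fell where they were called. SLC25A22, which carries glutamate into mitochondria, had 9.27 and 10.0 FPKM in GMI cells and 13.7 and 14.4 FPKM in control cells, or -0.50 on the log2 scale (SE 0.072; limma adjusted p = 0.00726). SLC25A13 (citrin), the aspartate-glutamate exchanger, had 5.87 and 5.76 FPKM in GMI cells and 7.13 and 7.46 FPKM in control cells (-0.28, limma adjusted p = 0.044). SLC25A10, the dicarboxylate carrier, had 2.55 and 2.24 FPKM in GMI cells and 3.48 and 3.95 FPKM in control cells (-0.47, limma adjusted p = 0.0232). All 3 stand on a list of 15 mitochondrial carboxylate and amino acid carriers, of which 13 were expressed. None of the list rose and 3 fell (23.1%), against 9.30% and 6.12% of all genes tested. At an unadjusted p below 0.05, 0 were higher and 6 lower, against 17.2% and 15.0% of all genes. The list was put together by hand with earlier results known, so nothing particular to it is read from this. SLC25A5 (ANT2), which exchanges ADP and ATP, fell, with 295 and 290 FPKM in GMI cells and 358 and 344 FPKM in control cells (-0.26, limma adjusted p = 0.026). The adenine nucleotide carriers SLC25A6 and SLC25A4, the latter named outside the rule, did not pass (0.10 and -0.11). The tables hold 9 pseudogenes of SLC25A5, the highest at 0.560 FPKM. SLC25A32, a flavin and folate carrier with 80.8% of its exon length overlapping another gene, fell by 0.31 (limma adjusted p = 0.0477), and SLC25A10 overlaps over 46.6% of its length. SLC25A15, the ornithine carrier, narrowly missed the threshold, with 2.49 and 3.31 FPKM in GMI cells and 4.29 and 4.18 FPKM in control cells (-0.43, limma adjusted p = 0.0501). The phosphate carrier SLC25A3 had 149 and 150 FPKM in GMI cells and 152 and 144 FPKM in control cells (0.016, and -0.007 in TPM), and the citrate carrier SLC25A1 stood at 0.14. In these bulk libraries, fewer cells of a kind and less RNA per cell cannot be told apart. The summed FPKM of the 36 genes was 1282 and 1266 in GMI libraries and 1343 and 1274 in control libraries.

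Of the 6 genes with a carrier's symbol that are no carriers, SLC9A3R1 (now NHERF1), a scaffold of membrane transporters, had 9.37 and 8.46 FPKM in GMI cells and 6.68 and 6.78 FPKM in control cells and rose (0.36, limma adjusted p = 0.0264), and the transcription factor gene SLC2A4RG fell, with 20.3 and 19.6 FPKM in GMI cells and 31.01 and 28.5 FPKM in control cells (-0.55, limma adjusted p = 0.00421). Of 22 genes listed as carriers of lysosomes and endosomes, 16 were expressed. By limma, SLC17A5, SLC38A7 and SLC31A2 were called higher and none fell (5 higher and 1 lower at an unadjusted p below 0.05). Without SLC31A2, which passed the limit through GMI cells, 2 of 15 rose, against 9.30% of all genes. Carriers that have other symbols were listed as well: 30 of 42 were expressed, 9 rose and none fell, with a median of 0.24 (18 higher and 1 lower at an unadjusted p below 0.05). Of all genes tested, 9.30% rose and 6.12% fell, and 17.2% were higher and 15.0% lower at an unadjusted p below 0.05, but the list was put together by hand with earlier results known, so nothing particular to it is read from this. The ammonium transporter RHCG had the largest change of the list, with 34.2 and 38.3 FPKM in GMI cells and 12.1 and 12.8 FPKM in control cells (1.47, limma adjusted p = 0.000407). MFSD12, a lysosomal cysteine importer, had 50.3 and 53.7 FPKM in GMI cells and 28.4 and 28.96 FPKM in control cells (0.84, limma adjusted p = 0.00098), and NPC1, which exports cholesterol from lysosomes, had 21.4 and 20.02 FPKM in GMI cells and 10.4 and 10.98 FPKM in control cells (0.90, limma adjusted p = 0.0011). Of 26 partners and regulators, 25 were expressed, 7 rose and none fell (11 higher and 2 lower at an unadjusted p below 0.05), beside the same shares of all genes and with the list likewise chosen by hand. BSG (basigin), the chaperone of SLC16A1 and SLC16A3, had 291 and 277 FPKM in GMI cells and 246 and 239 FPKM in control cells (0.23, limma adjusted p = 0.0448). ATF4, a transcription factor of the amino acid response, had 191 and 197 FPKM in GMI cells and 142 and 136 FPKM in control cells (0.48, limma adjusted p = 0.00398).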

How the data were processed

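The authors deposited FPKM values, 1 table per library, given to 2 decimals for 57905 genes. The build was GRCh37 and the tools were HISAT2 2.0.1, HTSeq 0.6.1, cutadapt 1.9.1 and bcl2fastq 2.17.1.14, per the submitters' processing notes. The annotation release, strand setting and gene lengths stand as not given in the sources used here. With no strand setting stated, a gene and one that overlaps it, or its antisense partner, may share reads that cannot be told apart. Per the labels' protocols, RNA was extracted with Trizol and 1 µg per library with an integrity number above 7 entered the NEBNext Ultra kit.

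Groups were taken from the labels. FPKM steps of short genes, up to 200 nt and below 20 FPKM, gave the library denominators, at which 95.8% to 96.8% of values were whole within 0.006 FPKM; depth is thus known only approximately. The model was limma 3.58.1 (R 4.3.3), run with a mean-variance trend on log2(FPKM + 1) of the 11598 genes at 1 FPKM or more in at least 2 libraries, with no covariate and 4.69 prior degrees of freedom. P-values were two-sided and adjusted by Benjamini-Hochberg over the 11598 genes, and the threshold was 0.05. Fold changes on this scale understate the change of low genes. A solute carrier was placed in a class by its symbol; after the symbols were seen, SLC7A6OS was moved to the genes that are no carriers and SLC18B1 and SLC51B to other organic solutes. The members and lists were chosen with earlier results of these data known. Named genes were the 10 highest and 10 lowest called log2 fold changes with a group mean of at least 5 FPKM and groups that do not overlap, the 2 smallest adjusted p and the highest level of each class, the 10 highest levels, a list of well known carriers, and the genes next to the limit: 54 genes, 27 of them called, some of which are not reported here. Lengths and exon overlaps came from GENCODE 29, on another build, and promoters from RefSeq on GRCh38.p14. Tables were made with Python 3.11.15, numpy 2.4.6, pandas 2.3.3 and matplotlib 3.10.9. The alternatives tried were another pseudocount, other filters and scalings, other variance models, a replicate block and leaving out each library. With 2 libraries a group, an exact permutation test cannot go below 0.33, so none was made of class sums.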

Additional observations from a re-analysis of the deposited data

How the results depend on the processing

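The 33 called carriers kept their direction in every alternative that tested them. As their groups did not overlap, only a change of scaling could have reversed it, so this is no support for the calls. Leaving out a library, with the lone library of its group assumed to vary like the other group, lowered the counts, and the cause was not tested: 45 to 1369 genes were called in place of 1789, and 1 to 12 carriers rose and 0 to 8 fell, with 12 called in both of the fits that left out 1 GMI library. By class the counts that rose ranged over 0 to 3 for amino acids, 0 to 2 for sugars, 0 to 1 for nucleosides, 0 to 1 for nucleotide sugars, 0 to 0 for metals, 0 to 0 for inorganic ions, 1 to 8 for other organic solutes and 0 to 1 for genes that are no carriers. The counts that fell ranged over 0 to 1 for amino acids, 0 to 1 for metals, 0 to 2 for mitochondrial carriers, 0 to 3 for other organic solutes and 0 to 1 for genes that are no carriers. SLC16A6 was the only called carrier without control replicate 1 and without control replicate 2. Testing with no filter moved the counts most: 1 gene of 26758 and 0 carriers were called, in either direction and in each class. At a mean of at least 5 FPKM, which tests fewer genes, 2 amino acid carriers and 2 genes that are no carriers rose, and 2 other organic solute carriers and 1 unassigned carrier fell. In TPM, 1 metal and 1 nucleotide sugar carrier rose. Without the mean-variance trend 1 metal and 0 inorganic ion carriers rose, and 3 mitochondrial carriers and 1 sugar carrier fell; with robust eBayes 1 sugar and 1 inorganic ion carrier fell. Among uncalled genes, the log2 fold change reversed for SLC25A3 (-0.007 in TPM, -0.025 to 0.056 without 1 library), SLC39A14 (-0.007 in TPM, -0.026 to 0.055 without 1 library), SLC12A2 (-0.20 to 0.022 without 1 library), SLC29A1 (-0.10 to 0.023) and SLC45A1 (-0.20 to 0.050). Scaling by median ratios shifted the libraries by -0.0201 to 0.0103 on the log2 scale.

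The labels do not say whether the replicate numbers pair the libraries. Deviations of same-numbered libraries correlated at -0.044 over 11598 genes. With 2 libraries a group the deviations mirror each other, so both replicate numbers give the same value. Same-numbered libraries thus shared little deviation over these genes, which does not settle whether they were paired. With the replicate block 34 carriers were called, 30 of them also called without it, 1 inorganic ion carrier fell, and SLC25A13, SLC35B2 and SLC38A1 lost their calls (limma adjusted p = 0.0578, 0.0643 and 0.0549).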
